A study of Mus musculus with 4 samples.

Results

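Fgf7 encodes fibroblast growth factor 7, and here it is described together with 9 other genes of fibroblast growth factor (FGF) ligands and receptors in MC38 cells, a mouse colon carcinoma line. The set was chosen by the fall of Fgf7 after targeting of Cbfb in these same libraries, and comprised the 10 gene symbols Fgf1, Fgf2, Fgf7, Fgf10, Fgf18, Fgfr1, Fgfr2, Fgfr3, Fgfr4 and Fgfrl1 of the 26322 genes in the table. The levels of these 10 genes are therefore given as a description. Calls of the fit over all genes are counted for them in the main fit and under the alternative settings, with nothing read from these counts. MC38 cells were electroporated with Cas9 ribonucleoprotein carrying either a non-targeting guide (sgNT, labelled WT) or a guide to Cbfb (sgCbfb, labelled CbfbKO), so that both groups share the electroporation and differ in the guide, and were harvested a week or more later. There were 2 libraries of each group, from 3′ mRNA sequencing, in which each transcript gives reads near its 3′ end. A further sample of each group had been left out by the submitters for poor RNA. The labels do not say whether the libraries of a group came from separate cultures, so the spread between them, and every p-value below, may reflect technical variation alone. The labels do not say whether the cells of a group were a pool or a clone, and the loss of the protein was checked by the submitters by western blot.

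FGFs are secreted signals that bind receptor tyrosine kinases on the cell surface together with heparan sulfate chains, and the active receptor passes the signal through adaptors such as FRS2 and GRB2 to the ERK kinases. FGF7, also called keratinocyte growth factor, is typically made by mesenchymal cells and acts on neighbouring epithelium, where it binds the epithelial splice form (IIIb) of FGFR2. FGF10 is its close relative and uses the same receptor form, and the ERK pathway induces feedback inhibitors such as the Sprouty proteins and DUSP6.

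The depth was 3396192 and 3335116 reads in the sgNT libraries and 3907936 and 3189035 in the sgCbfb libraries, as recovered from the deposited log2 CPM (the reads of a gene relative to all counted reads of its library). At this depth 1 read was worth 0.256 to 0.314 CPM, and a gene with 0 reads in a library could still have been present at up to 0.768 to 0.941 CPM, the level of 3 reads. Intervals on reads given below cover counting error only. Cbfb itself, which encodes the non-DNA-binding partner of the RUNX transcription factors, had 295 and 285 reads with sgNT and 125 and 125 with sgCbfb. Its level fell by 1.27 on the log2 scale (SE 0.12, limma adjusted p = 1.76e-07), to 41.5% of sgNT. The reads lie at the 3′ end of the transcript, and whether they cover the edited site is not given in the sources used here. With the first or the second sgCbfb library left out, 1 library remains in that group, and its spread cannot be estimated. The log2 fold change of Cbfb, sgCbfb over sgNT, was then -1.12 and -1.41, and that of Fgf7 was -2.004 and -1.73.

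Promoter sequences are shown for Fgf7, the gene around which the set was built, for its relative Fgf10, which was also lower on average, and for Fgfrl1, the abundant receptor gene that was higher in both sgCbfb libraries. They come from RefSeq on GRCm38.p6 and run from 250 bases before to 50 after an annotated start, 5′ to 3′ on the strand of the gene. Capitals mark matches to CCAAT (the CCAAT box) or GGGCGG (the GC box) on either strand. The Fgf7 window is chr2:126034408-126034707 (plus strand), the Fgf10 window chr13:118714449-118714748 (plus strand) and the Fgfrl1 window chr5:108693979-108694278 (plus strand).
Fgf7: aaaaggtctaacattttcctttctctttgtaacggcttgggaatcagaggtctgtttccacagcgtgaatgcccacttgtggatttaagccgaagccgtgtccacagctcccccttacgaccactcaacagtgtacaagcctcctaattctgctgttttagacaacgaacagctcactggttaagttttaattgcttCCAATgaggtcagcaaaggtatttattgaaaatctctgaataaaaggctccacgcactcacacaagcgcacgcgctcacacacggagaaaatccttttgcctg
Fgf10: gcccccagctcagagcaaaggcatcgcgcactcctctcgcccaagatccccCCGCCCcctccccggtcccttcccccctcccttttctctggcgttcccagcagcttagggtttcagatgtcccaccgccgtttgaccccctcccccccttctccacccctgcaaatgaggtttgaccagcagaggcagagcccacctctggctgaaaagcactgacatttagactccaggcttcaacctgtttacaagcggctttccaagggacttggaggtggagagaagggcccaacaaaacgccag
Fgfrl1: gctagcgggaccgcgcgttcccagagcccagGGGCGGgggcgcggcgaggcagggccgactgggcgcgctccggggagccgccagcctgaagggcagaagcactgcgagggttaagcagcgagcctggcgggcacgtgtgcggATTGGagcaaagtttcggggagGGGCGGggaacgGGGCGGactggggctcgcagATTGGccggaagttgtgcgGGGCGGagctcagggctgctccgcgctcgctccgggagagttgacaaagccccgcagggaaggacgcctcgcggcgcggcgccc

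The windows differ in base composition. The Fgf7 window was 45.7% G or C with 11 CpG pairs and held 1 match, a CCAAT 53 bases before the start, whereas the Fgfrl1 window was 73.7% G or C with 37 CpG pairs and held 2 CCAAT and 4 GC box matches. The Fgf10 window was 60.7% G or C with 10 CpG pairs and a single GC box match. The median over 32851 windows of the same length was 52.7% G or C and 7 CpG pairs. Since CBFβ acts with RUNX proteins, the RUNX core motif TGTGGT and its variant TGCGGT were searched on both strands, as were TATAAA (the TATA box) and TGANTCA (the AP-1 site). TGTGGT was in none of the 9 windows found for 8 of the 10 genes, against 16.8% of all windows. TGCGGT was in the Fgf2 window, against 6.45% of all windows. CCAAT was in 37.4% of all windows, GGGCGG in 35.7%, TATAAA in 13.6% and TGANTCA in 7.81%. These matches are letters in a short window and do not show where a factor binds. No window was found for Fgf1 or Fgfr1.

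Fgf7 was the most abundant of the 10 genes in sgNT cells and fell behind Fgfr1 in sgCbfb cells. Its gene lies on the plus strand at chr2:126034658-126091185 (GRCm38). It had 407 and 384 reads in the sgNT libraries and 137 and 92 in the sgCbfb libraries, or 119.8 and 115.1 CPM against 35.1 and 28.8 CPM. Both sgCbfb libraries were far below both sgNT libraries, and the gap between groups was many times the gap within either. The mean level was 117 ± 3.32 CPM (SD, n = 2) with sgNT and 32.0 ± 4.39 CPM (SD, n = 2) with sgCbfb. The log2 fold change, sgCbfb over sgNT here and throughout, was -1.87 (SE 0.12), or 27.4% of the sgNT level. The ratio of summed reads was 0.275, with a 95% counting interval of 0.236 to 0.318. Across the 13 alternative settings the log2 fold change lay between -2.004 and -1.73. In bulk RNA, fewer cells making Fgf7 and less Fgf7 RNA per cell cannot be told apart. In the order of genes with a read, Fgf7 was at rank 1522 of 13779 with sgNT (the top 11.0%) and at rank 4857 of 14083 with sgCbfb (34.5%).

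**Figure D1:**
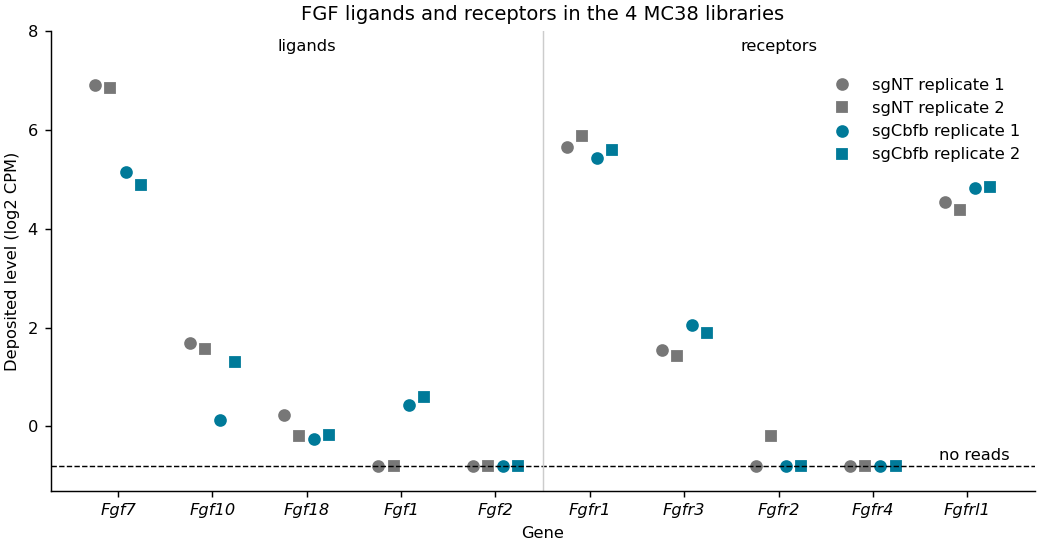
Deposited level (log2 CPM) of the 5 ligand and 5 receptor genes, 1 point per library, grey for sgNT and blue for sgCbfb, with the dashed line at the value of a gene without reads. Fgf7 falls from a mean of 6.88 to 5.02, Fgfr1 and Fgfrl1 shift little in opposite directions, and Fgf2 and Fgfr4 lie on the dashed line in all 4 libraries.

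The other ligands were at or near the limit of detection. Fgf10 had 9 and 8 reads with sgNT and 2 and 6 with sgCbfb (2.65 and 2.40 against 0.512 and 1.88 CPM). Its sgCbfb libraries were both lower and differed widely from each other, and the log2 fold change was -0.92 (SE 0.47) with a ratio of summed reads of 0.446 (95% counting interval 0.167 to 1.09). The log2 fold change was -0.33 without the first sgCbfb library and -1.51 without the second. Fgf1, which binds every FGF receptor, had 0 reads in both sgNT libraries and 3 in each sgCbfb library. The 95% counting interval of the ratio of summed Fgf1 reads, sgCbfb over sgNT, reached down to 1.12 and has no upper limit. It passed the filter on low values through its sgCbfb libraries alone, so that its difference was built into its selection, and it rests on 6 reads. Fgf18, a ligand of skeletal and lung development, had 2, 1, 1 and 1 reads and was not tested. Fgf2, basic FGF, had 0 counted reads in all 4 libraries. Over their 13828279 reads, counting error alone allows a level of up to 0.217 CPM. Its exons share 640 of 6782 bases with Nudt6 on the opposite strand, which had 22 to 31 reads. How reads in this overlap were assigned is not given, so the limit does not cover Fgf2 reads dropped or given to Nudt6.

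Of the 13 further secreted FGF ligands, 10 had no read in any library. Fgf21 had 1 read, Fgf9 had 2 and Fgf17 had 2, each in a single library. Fgf7 thus took nearly all reads counted on the 18 secreted ligands in every library. Its share was 97.1% (Wilson 95% interval 95.1 to 98.4) and 97.7% (95.7 to 98.8) with sgNT, and 94.5% (89.5 to 97.2) and 88.5% (80.9 to 93.3) with sgCbfb. The share was lower in both sgCbfb libraries, but Fgf7 was still the main FGF ligand transcript there. Of the 4 intracellular FGF homologous factors, which are not secreted and do not work through these receptors in the classical way, Fgf14 alone had a read, 1 in all.

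Among the receptors, Fgfr1 was the main signalling receptor transcript, Fgfrl1 was next, Fgfr3 was low, and Fgfr2, which carries the FGF7-binding splice form, was nearly undetected. Fgfr1 had 170 and 195 reads with sgNT and 166 and 152 with sgCbfb (50.1 and 58.5 against 42.5 and 47.7 CPM). The groups did not overlap, but the gap between them was smaller than the spread within either group. The log2 fold change of Fgfr1 was -0.26 (SE 0.13), or 83.4% of sgNT, and -0.37 to -0.15 across the alternatives. Fgfr1 took 92.2% to 96.1% of the reads on the 4 kinase receptors Fgfr1 to Fgfr4 in the 4 libraries.

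Fgfrl1 encodes a receptor-like protein that binds FGF ligands and heparin but has no kinase domain. It had 77 and 68 reads with sgNT and 108 and 90 with sgCbfb, or 22.7 and 20.4 against 27.6 and 28.2 CPM. Both sgCbfb libraries were higher, with means of 21.5 ± 1.61 CPM and 27.9 ± 0.414 CPM (SD, n = 2 each). The log2 fold change was 0.37 (SE 0.17), or 129% of sgNT, and 0.29 to 0.44 across the alternatives. There were 2.21 and 2.87 Fgfr1 reads per Fgfrl1 read with sgNT and 1.54 and 1.69 with sgCbfb.

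Fgfr3 had 8 and 7 reads with sgNT and 14 and 10 with sgCbfb (2.36 and 2.099 against 3.58 and 3.14 CPM). Its groups did not overlap, and the counting interval of its ratio of 1.52 ran from 0.764 to 3.11 and so included no difference. Fgfr2 had a single read, in an sgNT library, and Fgfr4 had none in any library. Fgfr2 lies on the minus strand at chr7:130162451-130266808 in RefSeq. Its GENCODE model is far longer, reaching to 133123350, and this longer model shares 314 exon bases with Ctbp2, which had 273 to 381 reads. Reads at the 3′ end do not separate the IIIb and IIIc receptor forms, which differ in an internal exon. The regulators that direct the epithelial form, Esrp1 and Esrp2, had 0 reads in all 4 libraries, while Rbfox2 and Ptbp1, splicing factors that act on Fgfr2 transcripts, had 625 to 758 and 484 to 641 reads.

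The order of levels in sgNT cells was Fgf7, Fgfr1, Fgfrl1, then Fgf10 and Fgfr3, whose libraries had 9 and 8 reads and 8 and 7 reads and do not differ beyond counting error, then Fgf18. In sgCbfb cells it was Fgfr1, then Fgf7 and Fgfrl1, whose nearest libraries lay at 28.8 and 28.2 CPM, then Fgfr3, then Fgf10 and Fgf1, whose libraries overlapped, then Fgf18. Fgf7 reads per Fgfr1 read were 2.39 and 1.97 with sgNT and 0.825 and 0.605 with sgCbfb. In 3′ sequencing a transcript gives about the same reads whatever its length, so CPM was used to order these genes without a length correction.

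In all, 6 of the 10 genes passed the filter on low values. Of these, 0 were higher and 1, Fgf7, was lower past an adjusted p of 0.05, where over the 12207 genes tested 1.57% were higher and 1.25% lower. The contrast that chose the set is the one that made this call, so nothing is read from it.

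**Figure D2:**
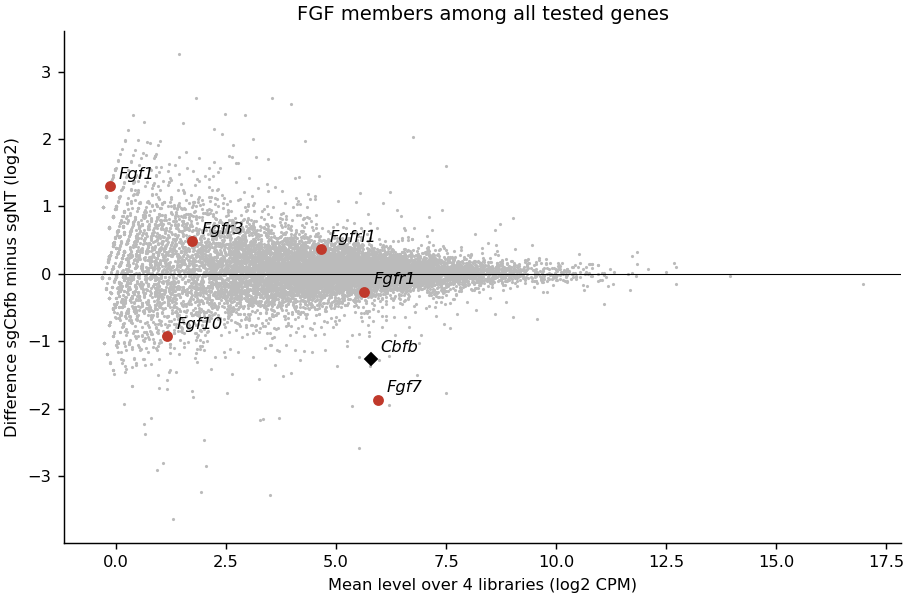
Log2 fold change, sgCbfb over sgNT, against mean level over the 4 libraries (log2 CPM) for the 12207 genes tested, in grey, with the 6 FGF genes that passed the filter in red and Cbfb in black. Fgf7, at a log2 fold change of -1.87, lies far below the bulk of genes, while Fgfr1 and Fgfrl1 lie near zero on either side.

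The genes with which FGFs work were called about as often as genes in general. Over 10 lists covering ligands, co-receptors, carriers, heparan sulfate, adaptors, feedback, outputs and splicing regulators, 93 genes were in the table and 58 were tested. Of these, 0 rose and 2 fell past an adjusted p of 0.05, Sdc4 and Ccnd1, or 3.45% of those tested beside 2.83% of all genes tested (1.57% higher and 1.25% lower), with a median log2 fold change of 0.018 beside 0.039 for all genes tested. By limma at an unadjusted p under 0.05 the count was 10, or 17.2% beside 14.9% of all genes tested, and voom on the recovered reads called 3, with Sulf2 added.

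The klotho co-receptors serve the hormone-like FGFs. Kl had 0 reads and Klb 1, and neither was tested. Of the carriers and ligand-binding proteins, 5 were tested and 0 passed by limma. By limma at an unadjusted p under 0.05 there were 3, beside 14.9% of all genes tested. The median log2 fold change of this list was 0.59 beside 0.039 for all genes tested, with 4 genes above zero and 1 below. Flrt2 and Flrt3, membrane proteins that interact with FGF receptors, had 68, 56, 109 and 89 reads and 41, 55, 94 and 66 reads in the sgNT and then the sgCbfb libraries. Their log2 fold changes were 0.59 (limma adjusted p = 0.0779) and 0.64 (limma adjusted p = 0.113), so the higher sgCbfb values did not pass the main test. Flrt2 passed with a minimum of 5 CPM (limma adjusted p = 0.0381). With the replicate number as a block, Flrt2 and Flrt3 passed (limma adjusted p = 0.0383 and 0.0499). Fgfbp1, which releases FGFs from the matrix, had 3 and 3 reads against 7 and 11. Fgfbp3, of the same family, lay on the other side of zero with 31 and 22 reads against 30 and 10 (log2 fold change -0.59, limma adjusted p = 0.478), and Fibp, with most reads of the list, had a log2 fold change of 0.05.

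Of the heparan sulfate core proteins, 8 were tested, 0 rose and 1 fell by limma (2 at an unadjusted p under 0.05). Sdc4, encoding the membrane proteoglycan syndecan 4, had 267 and 256 reads with sgNT and 213 and 177 with sgCbfb. It fell by 0.49 on the log2 scale (SE 0.11, limma adjusted p = 0.0078), a call that held in 6 of the 13 alternatives (adjusted p 0.00114 to 0.525) and was lost when any 1 of the 4 libraries was left out, at log2 fold changes of -0.51 to -0.48. Sdc1, which encodes syndecan 1, had 132 and 130 reads against 206 and 160 (log2 fold change 0.40, limma adjusted p = 0.0989), a value on the other side of zero that did not pass. Gpc1, the glypican with most reads, had 1192 to 1503 reads per library with a log2 fold change of 0.09. Of 13 tested enzymes that build or edit heparan sulfate, 0 passed by limma (1 at an unadjusted p under 0.05). Sulf2, which removes 6-O-sulfates from the chains, had 52 and 70 reads against 128 and 83, with a log2 fold change of 0.69. The limma adjusted p was 0.0522, and 0.0209 or 0.0311 by voom with library totals or median scaling. It also passed by limma with a minimum of 5 CPM (adjusted p = 0.0115) and with the replicate number as a block (adjusted p = 0.00822). It did not pass with no filter, quantile normalization, median centring, no trend or a prior count of 0.5. Ext1, a chain polymerase, and Ndst1, a sulfotransferase, had log2 fold changes of -0.05 and 0.02.

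Of the adaptors, 12 were tested and 0 passed by limma (1 at an unadjusted p under 0.05). Frs2, the docking protein of FGF receptors, had 49 and 54 reads with sgNT and 33 and 48 with sgCbfb (log2 fold change -0.42, limma adjusted p = 0.487). Grb2 and Ptpn11, with 599 to 784 and 499 to 635 reads, had log2 fold changes of 0.10 and 0.04. Of the feedback inhibitors, 8 were tested and 0 passed by limma (1 at an unadjusted p under 0.05), with a median log2 fold change of -0.28. Spry2 and Dusp6 had log2 fold changes of -0.39 (limma adjusted p = 0.29) and -0.32 (limma adjusted p = 0.368). In all, 6 of the 8 had values below zero and 2 above, Spred1 at 0.38 (limma adjusted p = 0.473) and Spred3 at 0.41 (limma adjusted p = 0.669).

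Of the genes that FGF-ERK signalling is known to raise, 10 were tested, 0 rose and 1 fell by limma (2 at an unadjusted p under 0.05). Ccnd1, encoding cyclin D1, had 3068 and 3072 reads with sgNT and 3013 and 2353 with sgCbfb. It fell by 0.27 on the log2 scale (SE 0.055, limma adjusted p = 0.00353), a call that held in 7 of the 13 alternatives (adjusted p 1.38e-05 to 0.511) and was lost when any 1 of the 4 libraries was left out, at log2 fold changes of -0.31 to -0.24. The other outputs did not pass and lay on both sides of zero. Etv4 and Etv5, transcription factors downstream of ERK, had log2 fold changes of 0.16 and 0.44, Fosl1 of 0.03, and Myc of -0.41 (limma adjusted p = 0.2).

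**Figure D3:**
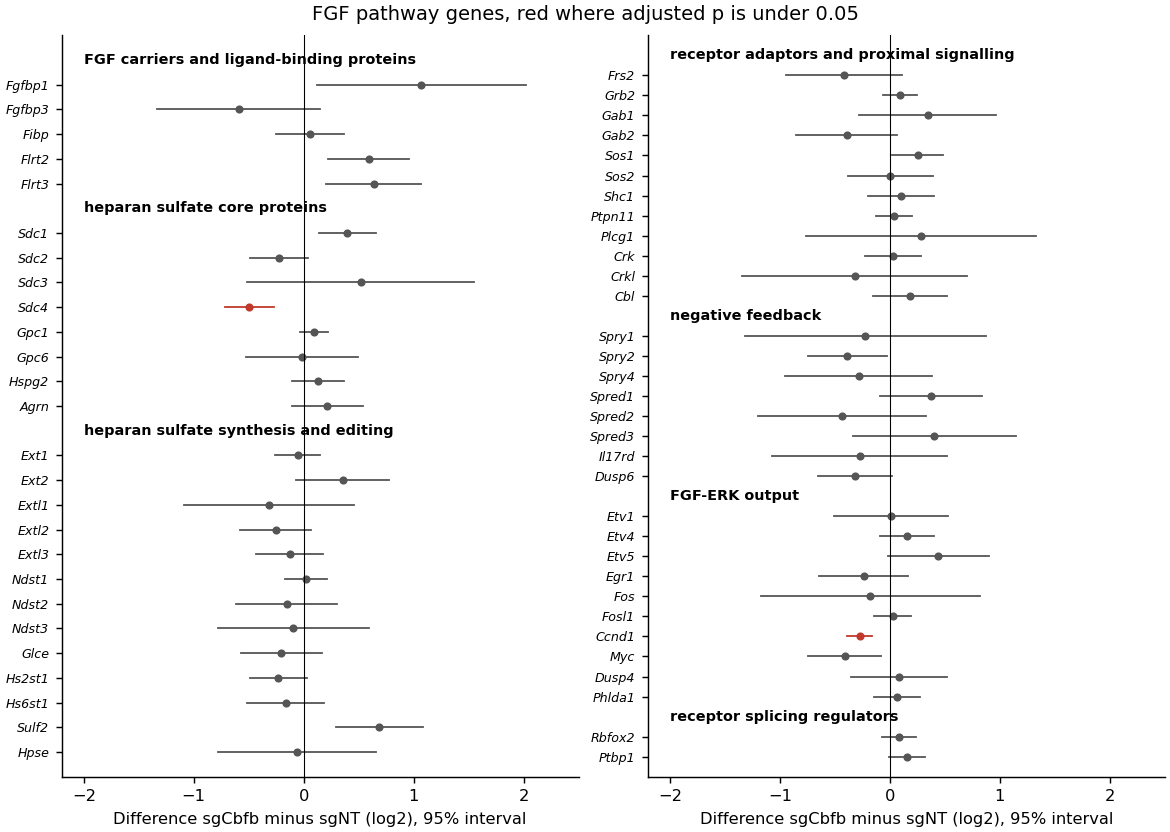
Log2 fold change, sgCbfb over sgNT, with its 95% interval, of the tested genes of each FGF pathway list. The 58 genes scatter around zero with a median of 0.018, and the 2 genes past the threshold, Sdc4 and Ccnd1, are in red and lie below zero.

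The neighbours of Fgf7 on chromosome 2 did not move as one. Galk2, an N-acetylgalactosamine kinase gene that ends 50.4 kb before the start of Fgf7, had 70 and 68 reads with sgNT and 38 and 30 with sgCbfb (20.6 and 20.4 against 9.72 and 9.41 CPM). It fell by 1.06 on the log2 scale (SE 0.22, limma adjusted p = 0.00563), to 48.1% of sgNT. The call held in 6 of the 13 alternatives (adjusted p 0.000439 to 0.525), and it was lost when any 1 of the 4 libraries was left out, at log2 fold changes of -1.08 to -1.03. Dtwd1, which starts 61.0 kb beyond the end of Fgf7, had 89, 83, 105 and 71 reads (log2 fold change -0.06, 95% interval -0.41 to 0.29, limma adjusted p = 0.917). Fam227b, whose span on the opposite strand contains Fgf7, had no read in any library, and its exons share 0 bases with those of Fgf7. Atp8b4, of a family of phospholipid flippases, had 2 and 4 reads against 0 and 0. It passed the filter on low values through its sgNT libraries alone, so its direction was built into its selection.

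**Figure D4:**
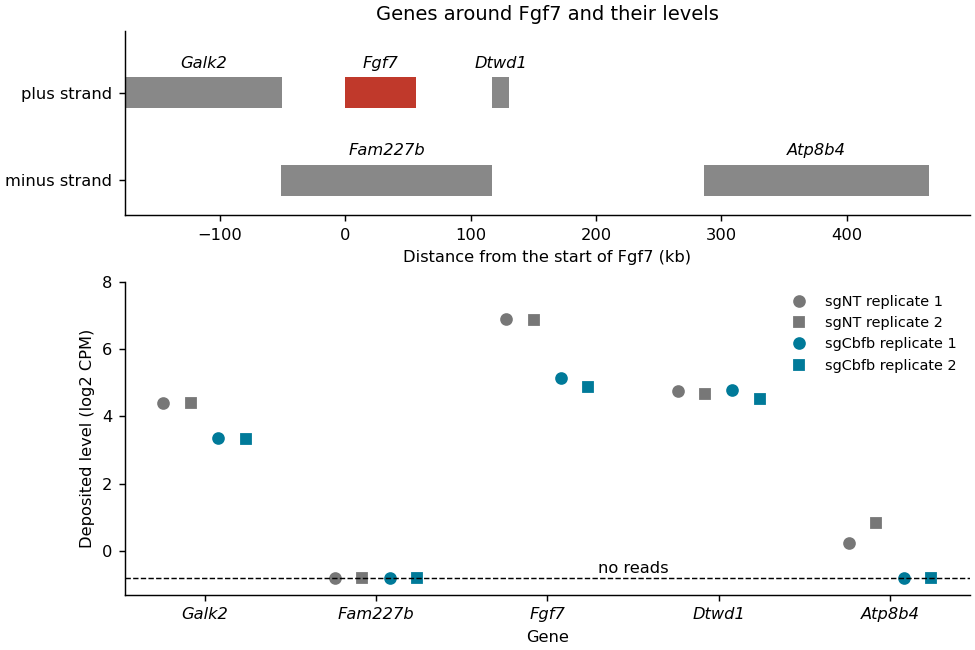
Fgf7 and the 2 genes to each side of it on chromosome 2 by distance from the Fgf7 start, and their deposited level (log2 CPM) in each library, grey for sgNT and blue for sgCbfb, with the dashed line at the value of a gene without reads. Fgf7 and Galk2 are lower in both sgCbfb libraries, Dtwd1 overlaps between groups and Fam227b has no read.

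The 5 genes whose 4 library values, centred on their mean, lay nearest to those of Fgf7 were Aqp1, Col8a1, Ankrd66, S100a4 and Bmp2, at Euclidean distances of 0.147 to 0.315 in log2 units over 4 libraries. Likeness to Fgf7 here means likeness to the difference between groups, and the genes were picked for it. Col8a1, a short-chain collagen of basement membranes, had 497 and 469 reads with sgNT and 147 and 114 with sgCbfb. S100a4, a calcium-binding protein gene often used to mark fibroblasts, had 1261 and 991 against 373 and 314. Bmp2, a ligand of the BMP pathway, had 73 and 66 against 17 and 13. The water channel gene Aqp1 had 20 and 19 against 6 and 3, and Ankrd66 had 5 and 6 against 0 and 0.

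MC38 cells are labelled as colorectal cancer, but of 13 epithelial markers 6 had no read in any library, and 12 had under 10 reads in all. Epcam had 1 read in 1 library of each group and Cdh1, which encodes E-cadherin, had 2, 1, 1 and 0 reads. Krt18, Cldn3, Cldn7, Vil1, Cdx1 and Lgals4 had 0. The summed level of the list was 1.77 and 1.80 CPM with sgNT and 2.30 and 2.20 CPM with sgCbfb. Mesenchymal and fibroblast markers were far higher, at a summed 2770 and 2905 CPM with sgNT and 2548 and 2440 CPM with sgCbfb, most of it from Vim, the vimentin gene, with 6737 to 8669 reads. Vim had a log2 fold change of -0.18 (limma adjusted p = 0.0538, 2.17e-05 to 1 over the alternatives). Of these 16 genes 12 were tested, 0 rose and 1 fell by limma, beside 1.57% higher and 1.25% lower over all genes tested. By limma at an unadjusted p under 0.05 there were 5 of the 12, beside 14.9% of all genes tested. Col3a1, a fibrillar collagen gene, had 386 and 354 reads against 217 and 197 and fell by 0.90 on the log2 scale (SE 0.10, limma adjusted p = 2.46e-06), a call that held in 9 of the 13 alternatives (adjusted p up to 0.302) and was lost without either sgCbfb library, at log2 fold changes of -0.82 and -0.98. Pdgfra and Snai2 had log2 fold changes of 0.53 (limma adjusted p = 0.0515, 0.0097 to 0.828 over the alternatives) and -1.16 (limma adjusted p = 0.0548, 0.0144 to 0.79 over the alternatives), so that both passed under some settings. Lum and Thy1 had 0 reads and Acta2 had 1. Of the 5 immune cell markers Ptprc alone had a read, 1 in all, and the 4 endothelial markers had 1 or 2 reads per library. The part of these markers in the level of Fgf7 was not tested.

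**Figure D5:**
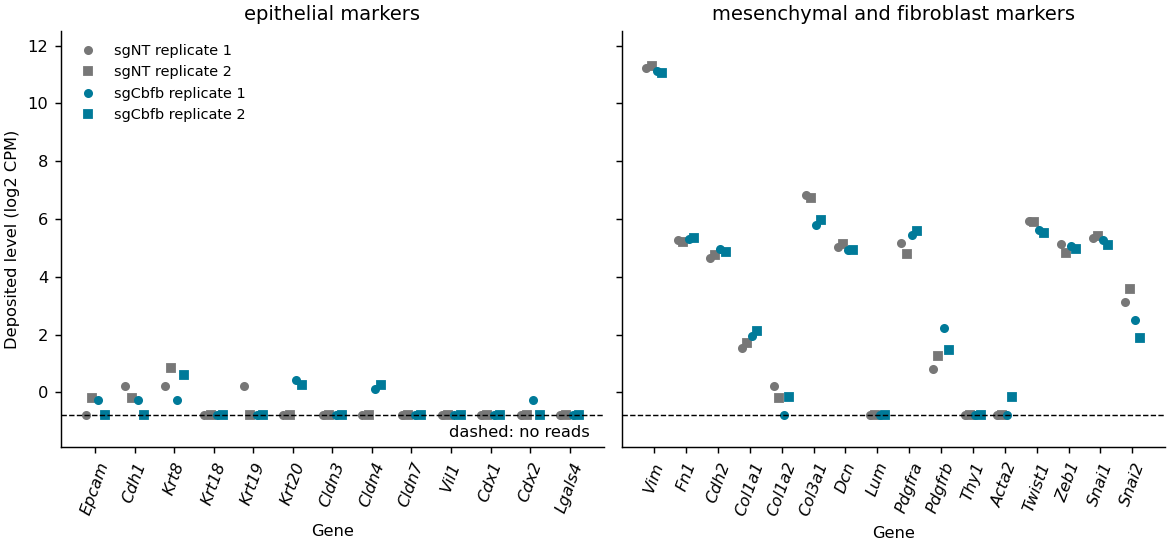
Deposited level (log2 CPM) of 13 epithelial and 16 mesenchymal and fibroblast markers, 1 point per library, grey for sgNT and blue for sgCbfb, with the dashed line at the value of a gene without reads. Most epithelial markers lie on or near the dashed line, while Vim leads the mesenchymal markers and Col3a1 is lower in both sgCbfb libraries.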

How the data were processed

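All 4 MC38 libraries were analysed, 2 per group, grouped by their labels. Per the labels and the study's methods, QuantSeq 3′ libraries were trimmed with cutadapt 1.9, aligned to mm10 with HISAT2 2.1.0 and counted with featureCounts (2.0.1 in the submitters' processing notes, while the methods name another version). The gene annotation, the use of strand and the treatment of reads matching several genes are not given in the sources used here, and could change the values of overlapping genes and paralogs. The authors deposited log2 CPM values that include a prior count of 2, so fold changes of low genes are understated. Reads were recovered from them, and 99.99% to 100% of values came out within 0.1 of a whole read.

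The main test was limma 3.58.1 in R 4.3.3 (linear model with empirical Bayes moderation that follows the mean-variance trend; two-sided, Benjamini-Hochberg) on the log2 values of 12207 genes at 0 or more in at least 2 libraries, with a threshold of 0.05. The study's methods name voom with limma, which was run on the recovered reads as an alternative. An exact permutation test of 2 against 2 libraries cannot go below p = 0.333, so none was used. Ratios of reads have exact 95% counting intervals. The recovery and the test were checked on simulated data.

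The genes and lists were chosen with earlier results of these data known. Named genes are all 10 FGF genes, Cbfb, genes of each list past the threshold or among its 4 with most reads or with none, the 5 nearest to Fgf7 in pattern and 2 neighbours to each side. Other list genes named (Flrt2, Flrt3, Sulf2, Sdc1, Fgfbp1, Frs2, Spred3, Etv5, Myc, Pdgfra and Snai2 among them) were chosen after their values were seen. Positions are from GENCODE M21 and RefSeq (GRCm38). Alternatives were no filter, a 5 CPM minimum, quantile normalization, median centring, no trend, voom with 2 scalings, a prior count of 0.5, the replicate number as a block and leaving out each library.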

Additional observations from a re-analysis of the deposited data

How the results depend on the processing

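The log2 fold change of Fgf7 lay between -2.004 and -1.73 in 13 alternatives, and those of Fgfr1, Fgfrl1, Fgfr3 and Fgf10 kept their sign in every alternative that could be run (Fgf10, Fgfr3 and Fgf1 are dropped by the 5 CPM minimum). The fitted value of Fgf1, which depends on the prior count, was 1.31 and reached 2.73, 2.70 and 2.78 with voom on either scaling and the smaller prior count. The call on Cbfb was lost with no filter (-1.27, adjusted p = 0.29) and with no mean-variance trend (-1.27, adjusted p = 0.115), and its log2 fold change ran from -1.41 to -1.12 with each library left out. Counts of genes depended strongly on the settings, and the cause was not tested. The 192 genes higher became 2 with no filter, 300 with the 5 CPM minimum, 39 with quantile normalization, 0 with no trend (limma, 911 at an unadjusted p under 0.05), 320 with the replicate block, and 0 to 115 with a library left out. The 153 genes lower became 53 with no filter, 44 with quantile normalization, 0 with no trend (limma, 550 at an unadjusted p under 0.05), and 0 to 86 with a library left out. Higher genes were 55.7% of calls, 48.4% with median centring, 47.3% with voom on median scaling and 47.0% with quantile normalization. The 1 FGF gene past the threshold became 0 with no filter and with no trend, and 0 to 1 with a library left out. The 2 pathway genes past it became 0 with no filter, 4 with the 5 CPM minimum (Flrt2 and Sulf2 added), 1 with quantile normalization, 0 with no trend, 5 with the replicate block (Flrt2, Flrt3 and Sulf2 added), and 0 to 1 with a library left out, the 1 being Sulf2 without the second sgNT library. Whether replicate numbers pair the libraries is not given in the labels. Deviations of same-numbered libraries correlated at -0.0042, which shows no pairing. Counting noise is part of these deviations, so pairing is not excluded. Leaving out either sgCbfb library gave 0 genes by limma, with 1104 and 1169 at an unadjusted p under 0.05. Depth limits the ligands: Fgf1, Fgf10 and Fgf18 rest on 6, 25 and 5 reads.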
